A study of Mus musculus with 4 samples.

Results

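The cytosolic ribosomal protein genes were examined in RNA-seq libraries of liver group 1 innate lymphoid cells (ILC1s), which are tissue-resident lymphocytes related to natural killer (NK) cells. The libraries came from mice labelled Cd200r knockout (KO, replicates 1 and 2) and from WT mice (replicates 1 and 3). All mice were 5 to 8 weeks old and held at homeostasis. Members were chosen by symbol: names of the Rpl, Rps, Rplp and Rpsa form, without pseudogenes and without the Rps6 kinases, and with an average over the 4 libraries of at least 1 FPKM (read fragments per kilobase of a gene, relative to the reads of the library). A total of 85 symbols of the 18804 genes in the table had such a name, and 82 met the minimum, of which 50 belong to the large (60S) subunit and 32 to the small (40S) subunit. The labels do not say how the Cd200r allele was made, whether a library holds cells of 1 mouse or of several, or how the cells were isolated, so p-values measure only the spread between these libraries.

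A cytosolic ribosome is built from ribosomal RNA and a set of proteins that are needed in near equal number, and each protein is made from its own gene. The small subunit reads the mRNA and the large subunit joins the amino acids. Mammalian ribosomal protein mRNAs typically start with a cytosine followed by a run of pyrimidines, the 5′ terminal oligopyrimidine (TOP) motif, through which mTOR signalling adjusts their translation, so that the mRNA level is not a measure of protein output. Lymphocytes raise ribosome production when they are activated and grow.

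Such starts can be read from the RefSeq transcript starts of GRCm38.p6, which were given for 61 of the 82 members (37 large, 24 small) and for 27025 genes in all. With a C at an annotated start and at least 4 more pyrimidines after it, 12 of the 61 members (19.7%, 6 large and 6 small) had a TOP-like start, against 3.01% of all genes. An annotated start can lie some bases away from the one a cell uses, so a member without such a start here is not shown to lack it. The first 30 transcribed bases of 8 of the 12 are given because they show how the run varies in length, with the pyrimidine run in capitals.
Rpl15, GRCm38 chr14:18270957-18270986 (minus strand): CTTCCTTTCCTCTggcggcagccatcaggt
Rpl35, GRCm38 chr2:39005102-39005131 (minus strand): CTCTTTCTCTCgaaccaggctgcttcagcc
Rps10, GRCm38 chr17:27635215-27635244 (minus strand): CTTCCTTTCCagcctccgcctcggaccctg
Rps18, GRCm38 chr17:33955636-33955665 (minus strand): CTCTCTTCCacaggaggcctacacgccgcc
Rps6, GRCm38 chr4:86857338-86857367 (minus strand): CTCTTTTTCgtgacgcctcccaggcgctcg
Rpl38, GRCm38 chr11:114668580-114668609 (plus strand): CTTTCCCCgttctcttcggttctcatcgct
Rps27, GRCm38 chr3:90213619-90213648 (minus strand): CCTTTCCggcggtgacgacctccctacgag
Rplp2, GRCm38 chr7:141447651-141447680 (plus strand): CTTTCgccgccggacgccgccgaggtcgca
The longest run, 13 pyrimidines in Rpl15, and the shortest shown, 5 in Rplp2, both belong to large subunit genes.

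The promoters, taken as the 250 bases before and 50 bases after each start, were searched on both strands for 5 words. CGGAAG, the core bound by Ets factors, was in 43 of the 61 members (70.5%; 24 of 37 large and 19 of 24 small), against 18.8% of all genes. GGGCGG, a GC box core, was in 63.9% of members and 38.2% of genes, and CTTTCC, a pyrimidine word that can overlap the start itself, was in 52.5% of members and 29.3% of genes. CACGTG, an E-box, was in 9.84% of members and 8.09% of genes, and TATAAA in 11.5% of members and 15.7% of genes. These matches describe the letters in the window and show no binding. A gene counted as holding a word if any of its annotated starts did. All genes with annotated starts were compared, whether or not they were expressed here, so they were not matched to the members in level. Both points also hold for the TOP-like starts above. How far they bear on the shares was not tested. The stretch from 100 bases before to 30 bases after the start is given for 5 genes on which the results below turn: the pair that passed the test, the member of the highest level, a high small subunit member and a large subunit member with a negative log2 fold change. CGGAAG and CTTTCC are in capitals on whichever strand they lie, so that they can also read CTTCCG and GGAAAG.
Rpl36a, GRCm38 chrX:134585554-134585683 (plus strand): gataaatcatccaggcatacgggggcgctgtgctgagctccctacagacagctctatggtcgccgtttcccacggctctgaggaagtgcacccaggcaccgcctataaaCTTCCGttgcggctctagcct
Rpl12, GRCm38 chr2:32961612-32961741 (plus strand): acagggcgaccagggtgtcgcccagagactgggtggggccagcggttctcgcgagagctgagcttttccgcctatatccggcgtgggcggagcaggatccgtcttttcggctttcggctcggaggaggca
Rps27, GRCm38 chr3:90213619-90213748 (minus strand): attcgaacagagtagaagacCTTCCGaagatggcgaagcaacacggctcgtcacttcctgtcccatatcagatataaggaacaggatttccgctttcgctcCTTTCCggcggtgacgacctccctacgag
Rps18, GRCm38 chr17:33955636-33955765 (minus strand): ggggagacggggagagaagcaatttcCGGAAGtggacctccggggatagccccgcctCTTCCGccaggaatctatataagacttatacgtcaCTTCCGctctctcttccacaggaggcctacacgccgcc
Rpl37a, GRCm38 chr1:72711160-72711289 (plus strand): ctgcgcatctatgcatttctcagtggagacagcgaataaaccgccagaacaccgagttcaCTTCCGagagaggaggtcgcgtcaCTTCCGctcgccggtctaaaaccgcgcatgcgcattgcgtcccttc
Within this stretch Rps18 held 3 CGGAAG words, Rpl37a 2, and Rps27 and Rpl36a 1 each. The stretch of Rpl12 held neither word.

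Some properties of the libraries bear on the values that follow. The depth inferred from the steps between low values was similar, from 38972600 to 41164777 reads, so that 1 FPKM stands for 39.0 to 41.2 reads per kilobase. Cd200r1, the targeted gene, measured 111 and 104 FPKM in KO libraries and 162 and 173 FPKM in WT libraries (log2 fold change -0.64, SE 0.09, limma adjusted p = 0.00451), so its transcript was lower and still present. Of 10 ILC1 markers 9 were tested, and their summed level was 4420 and 4402 FPKM in KO libraries against 4847 and 5079 FPKM in WT libraries. Of these 9, 1 was called lower, none was called higher, and 1 had a log2 fold change above 0. The marker called lower was Gzmc, at 116 and 94.6 FPKM in KO and 292 and 319 FPKM in WT (log2 fold change -1.53, limma adjusted p = 1.00e-04). Markers of several other cell types moved with genotype. Summed conventional NK markers were 230.1 and 451 FPKM in KO and 76.0 and 68.5 FPKM in WT (7 of 8 called higher), and macrophage markers were 641 and 954 FPKM in KO and 246 and 225 FPKM in WT (7 of 10 called higher). Erythroid markers were 12483 and 14027 FPKM in KO and 24711 and 26811 FPKM in WT (7 of 7 called lower). Summed proliferation genes were 349 and 335 FPKM in KO and 211 and 221 FPKM in WT (4 of 9 called higher). Hepatocyte markers were 482 and 503 FPKM in KO and 349 and 459 FPKM in WT (1 of 7, Fgb, called higher, and all 7 above 0). T cell markers were 2124 and 2154 FPKM in KO and 2370.3 and 2347 FPKM in WT (none of 5 called by limma). Among the T cell markers, Cd3e measured 18.3 and 20.3 FPKM in KO and 13.3 and 10.1 FPKM in WT (limma adjusted p = 0.0518), and Cd3d 102 and 159 FPKM in KO and 84.8 and 76.9 FPKM in WT (adjusted p = 0.0713). Cd3g, which makes up most of the T cell sum, was lower in KO. It measured 1983 and 1950 FPKM in KO and 2249 and 2238 FPKM in WT (adjusted p = 0.242). Of the 5 T cell markers, 3 had a log2 fold change above 0. B cell markers were 46.0 and 56.8 FPKM in KO and 53.7 and 73.3 FPKM in WT (none of 4 called). No tested marker of these lists was at 0 in a library, and whether these cells or transcripts contributed to the ribosomal protein values was not tested.

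Relative to WT, KO ILC1s had slightly more ribosomal protein mRNA in total, and only Rpl36a and Rpl12, both of the large subunit, passed the test on their own. Both passed as higher in KO, by 1.40-fold and 1.34-fold. A member was called at a limma adjusted p under 0.05 on log2(FPKM + 1), with p-values adjusted over all 9476 genes that averaged 1 FPKM or more. Called in either direction were 3.33% of them. The 2 called higher are 2.44% of members, while 2.4% of all tested genes were called higher in KO, so the share of called members lay at the background. In bulk libraries, more cells of a type and more RNA per cell cannot be told apart, and FPKM is relative to the rest of the library. No member was called lower by limma, against 0.939% of all tested genes, and no member had an unadjusted p under 0.05 in that direction, against 6.52% of all tested genes.

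The whole set was displaced by a small amount. The median log2 fold change was 0.15 for the 82 members, 0.16 for the large and 0.13 for the small subunit, and 0.00 for all tested genes. A total of 77 members (93.9%; 46 of 50 large and 31 of 32 small) had a log2 fold change above 0, against 50.5% of all tested genes. Both KO libraries lay above both WT libraries in 53 members (64.6%; 34 large and 19 small), against 24.3% of all tested genes. An unadjusted limma p under 0.05 in the higher direction was found for 22 members (26.8%; 11 large and 11 small), against 8.97% of tested genes. Members are not independent of each other and lie in the same 4 libraries, so these counts describe the libraries and carry no p-value. The interquartile range of member log2 fold changes was 0.12, against 0.31 for all tested genes, so the members' fold changes lay closer together than those of genes in general. All tested genes were not matched to the members in level. In KO replicate 1 the median log2 level was 7.26 for members and 3.50 for all tested genes. How far level bears on this range and on the shares above was not tested.

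**Figure D1:**
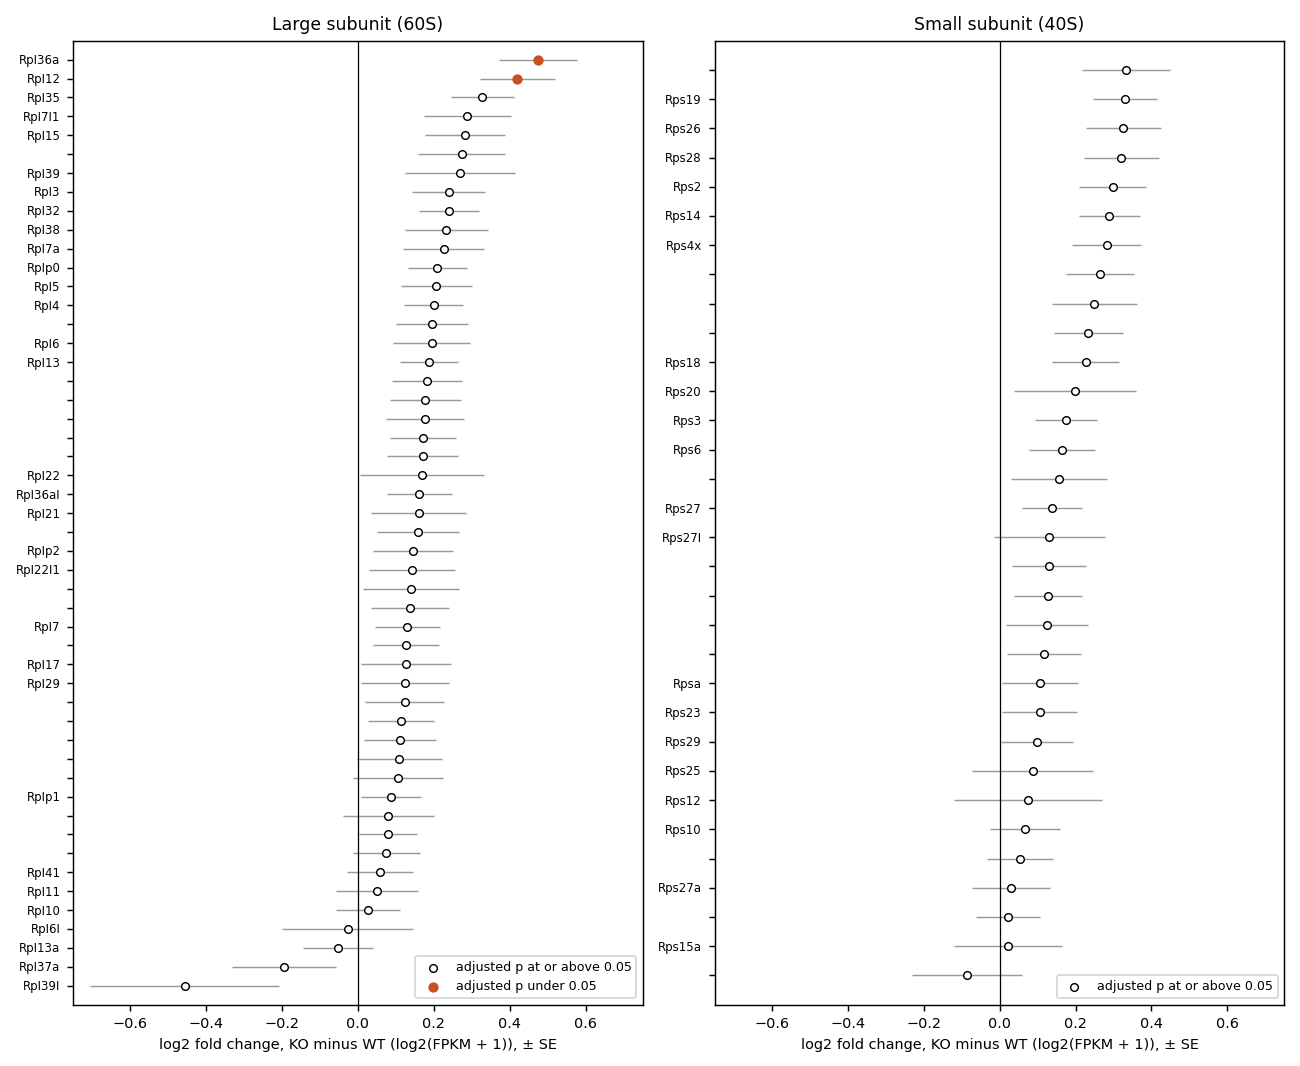
Log2 fold change of each member, KO minus WT on the log2(FPKM + 1) scale, with bars of 1 SE from limma (n = 2 libraries each), for the large subunit (left) and the small subunit (right). Filled points mark the 2 members with an adjusted p under 0.05, Rpl36a and Rpl12, and 5 members lie below 0. Members named in the text are labelled.

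The displacement was also visible library by library, and the WT libraries differed from each other in it. Ribosomal protein mRNA made up 3.11% and 3.04% of summed FPKM in KO libraries 1 and 2, against 2.89% and 2.65% in WT libraries 1 and 3. The groups did not overlap, and the gap between the WT libraries was wider than that between KO libraries. The median member had 153 and 144 FPKM in KO libraries and 136 and 121 FPKM in WT libraries. WT replicate 3 was the lowest of the 4 libraries for 65 of 82 members, while it was the lowest for 24.2% of all tested genes. KO replicate 2 was the highest for 47 members and KO replicate 1 for 27, against 29.9% and 23.4% of all tested genes. WT replicate 1 exceeded WT replicate 3 in 69 members, with a median difference of 0.11 on the log2 scale, beside the median KO minus WT difference of 0.15.

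Set against each WT library in turn, the median member was higher by 0.09 (KO replicate 1) and 0.12 (KO replicate 2) than WT replicate 1, and by 0.19 and 0.23 than WT replicate 3. The count of members above WT replicate 1 was 61 in KO replicate 1 and 67 in KO replicate 2. The count above WT replicate 3 was 77 and 78. Without WT replicate 3 the median log2 fold change of members was 0.09, and 66 of the 81 members then tested were above 0. Without WT replicate 1 it was 0.21, with 79 of 82 above 0. Other RNA classes also differed between genotypes: haemoglobin mRNA was 2.43% and 2.66% of summed FPKM in KO libraries and 4.78% and 5.15% in WT libraries, and mitochondrially encoded RNA was 2.51% and 2.89% in KO libraries and 1.30% and 1.64% in WT libraries. Rescaling each library to the sum without both classes left a median of 0.12 with 75 of 82 members above 0. The median of all tested genes was then -0.02. Members thus stood 0.145 above all tested genes, against 0.147 without this rescaling.

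**Figure D2:**
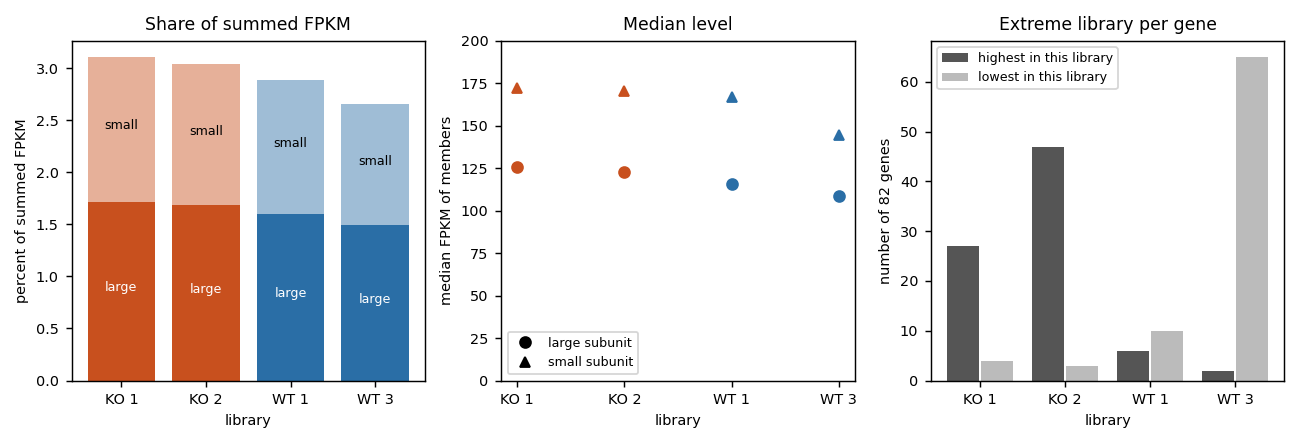
Share of summed FPKM in ribosomal protein genes (left, percent, stacked by subunit), median FPKM of the 50 large and 32 small subunit genes (middle), and number of the 82 genes with their highest or lowest value in each library (right). The KO libraries hold 3.11% and 3.04%, the WT libraries 2.89% and 2.65%, and WT 3 is the lowest library for 65 genes.

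The proportion of the subunits to each other was similar in KO and WT libraries. Large subunit genes summed to 1.24 times the small subunit genes in both KO libraries and to 1.25 and 1.28 times in WT libraries, so by this sum the KO libraries lay slightly lower, without overlap and by about the gap between the WT libraries. The median log2 level of the large subunit genes minus that of the small subunit genes was -0.45 and -0.47 in KO libraries and -0.53 and -0.41 in WT libraries, so the values of the groups overlapped. The difference of these differences, KO minus WT, was 0.0068 on the log2 scale, which is less than the spread between replicates (SD 0.06). With 1 replicate left out at a time it lay between -0.05 and 0.05. Large subunit genes made up 1.72% and 1.68% of summed FPKM in KO libraries against 1.60% and 1.49% in WT libraries, and small subunit genes 1.39% and 1.36% in KO libraries against 1.28% and 1.16% in WT libraries. The median large subunit gene had the lower level of the 2 classes in every library, at 126, 123, 116 and 108 FPKM in KO 1, KO 2, WT 1 and WT 3, while the median small subunit gene had 172, 171, 167 and 144 FPKM.

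**Figure D3:**
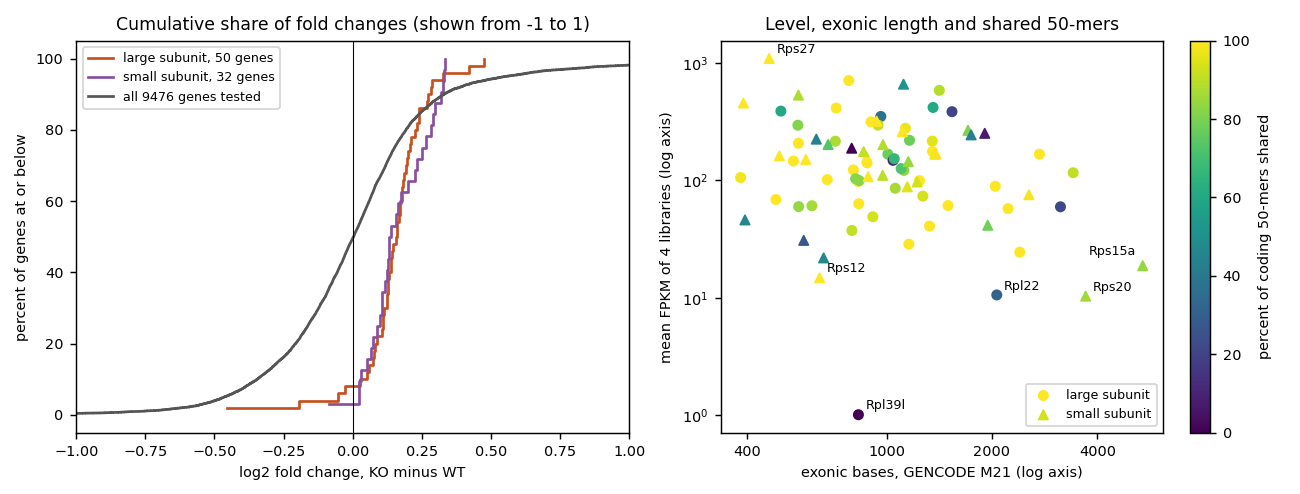
Left, cumulative percent of genes at or below each log2 fold change (KO minus WT) for large subunit, small subunit and all 9476 tested genes, on an axis cut at -1 and 1. The member curves lie close together and right of the all-gene curve (medians 0.16, 0.13 and 0.00). Right, mean FPKM of 4 libraries against exonic bases in GENCODE M21 for the 81 members with gene models (both axes log), coloured by the percent of coding 50-mers shared with another gene.

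Among large subunit genes, Rpl36a encodes a small protein near the site where tRNA leaves the ribosome. Rpl36a (GRCm38 chrX:134585654-134588062) measured 81.5 and 78.8 FPKM in KO libraries and 60.2 and 54.7 FPKM in WT libraries. Both KO libraries stood well above both WT libraries, with a log2 fold change of 0.48 (SE 0.10, limma adjusted p = 0.0320). Rpl12 (GRCm38 chr2:32961712-32964045) encodes a protein at the base of the ribosomal stalk, where elongation factors dock. It measured 117 and 111 FPKM in KO libraries and 89.2 and 81.0 FPKM in WT libraries, again without overlap (log2 fold change 0.42, SE 0.10, limma adjusted p = 0.0446). Both calls depended on the settings. Across 13 alternative settings Rpl36a passed in 7 (adjusted p from 0.0223 to 0.308) and Rpl12 in 3 (adjusted p from 0.0333 to 0.328), while the log2 fold change stayed between 0.41 and 0.54 for Rpl36a and between 0.35 and 0.49 for Rpl12. With 1 library left out, its group holds a single library, which the fit assumes to vary like the other group. Leaving out WT replicate 3 gave adjusted p = 0.221 for Rpl36a and adjusted p = 0.291 for Rpl12. Leaving out WT replicate 1 gave 0.0642 and 0.0959, and leaving out KO replicate 2 gave 0.0616 and 0.0647. Without KO replicate 1 Rpl36a kept an adjusted p of 0.0496 and Rpl12 had 0.0739.

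Reads of both genes could also come from copies. Every 50-base stretch of the coding sequence of Rpl36a recurred in at least 1 of 9 other genes, 6 of them pseudogenes, and every such stretch of Rpl12 recurred in at least 1 of 14 pseudogenes. How the authors' counting treated reads that match several places is not stated in the labels or the file, so the values of both genes are uncertain to that extent.

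Among the remaining large subunit members, Rpl35 and Rpl32 had the smallest p-values. Rpl35, at the exit of the peptide tunnel, measured 320.5 and 339 FPKM in KO libraries and 267 and 258 FPKM in WT libraries (log2 fold change 0.33, SE 0.08, limma adjusted p = 0.0630). Rpl32 followed at 377 and 384 FPKM in KO libraries and 326 and 318 FPKM in WT libraries (log2 fold change 0.24, adjusted p = 0.162). The KO values of both lay above their WT values without overlap, and neither passed the test. Without KO replicate 1, Rpl35 had an adjusted p of 0.0358, again with a single KO library.

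The stalk proteins Rplp0, Rplp1 and Rplp2, which recruit translation factors, are made from abundant mRNAs. Rplp0, the anchor of the stalk, measured 446 and 454 FPKM in KO libraries and 388 and 390.0 FPKM in WT libraries (log2 fold change 0.21, limma adjusted p = 0.217). Rplp1 measured 404 and 399.9 FPKM in KO libraries and 385 and 372 FPKM in WT libraries (0.09, adjusted p = 0.661). Rplp2 measured 173 and 149 FPKM in KO libraries and 154 and 137 FPKM in WT libraries (0.14, adjusted p = 0.571). Groups did not overlap for Rplp0 and Rplp1 and overlapped for Rplp2, and none of the 3 passed. Of the stalk and its base, Rpl12 alone passed.

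In the small subunit, no member passed with limma, and 11 had an unadjusted p under 0.05, all with higher values in KO. Rps19, the gene most often mutated in human Diamond-Blackfan anaemia, measured 308 and 288 FPKM in KO libraries and 240.2 and 233 FPKM in WT libraries (log2 fold change 0.33, SE 0.08, limma adjusted p = 0.0653). Rps14, lost in the human 5q deletion syndrome, measured 696 and 760.2 FPKM in KO libraries and 593 and 598 FPKM in WT libraries (0.29, SE 0.08, adjusted p = 0.0939). The KO libraries of both exceeded the WT libraries without overlap. Rps14 passed only when KO replicate 1 was left out, which leaves a single KO library (adjusted p = 0.0284), and Rps19 passed in none of the 13 alternatives. Rps2, which lines the mRNA entry channel, measured 157 and 162 FPKM in KO libraries and 127 and 132 FPKM in WT libraries (0.30, adjusted p = 0.112). Rps26, near the mRNA exit, measured 235 and 216 FPKM in KO libraries and 193 and 166 FPKM in WT libraries (0.33, adjusted p = 0.123). Rps28, also at the mRNA exit, measured 166 and 168 FPKM in KO libraries and 145 and 124 FPKM in WT libraries (0.32, adjusted p = 0.129). Their groups did not overlap either, and all 3 missed the threshold.

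**Figure D4:**
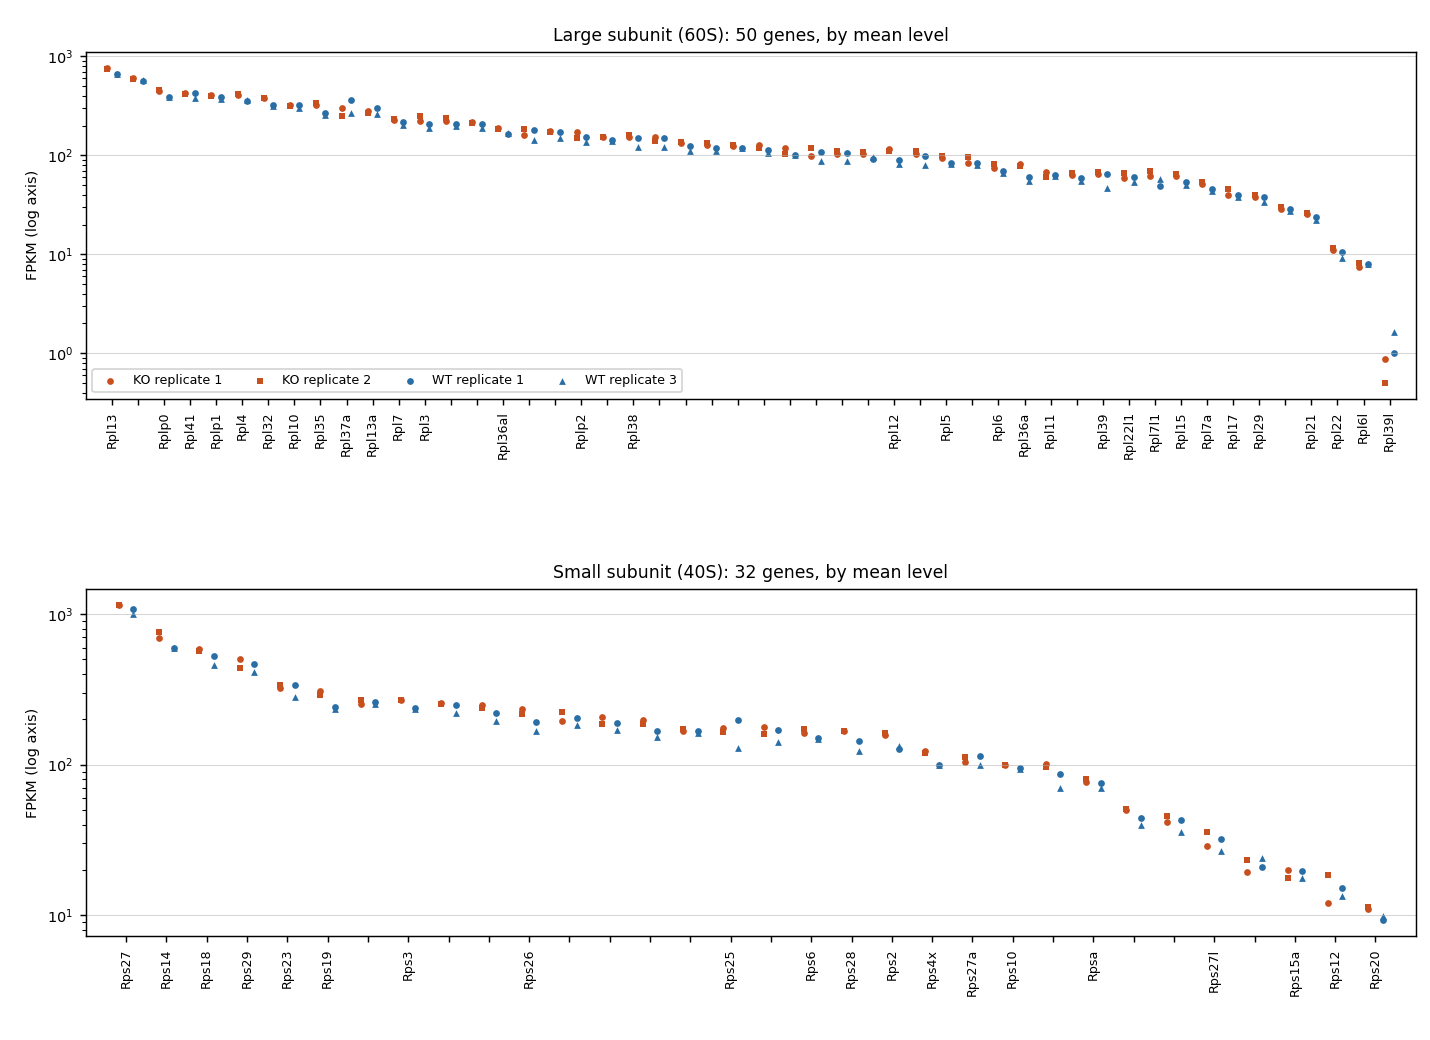
FPKM of each member in the 4 libraries (log axis), ordered by mean level, for the large subunit (top) and the small subunit (bottom). Each gene has its 2 KO points on the left and its 2 WT points on the right, and members named in the text are labelled. Levels run from Rps27 at a mean of 1095 FPKM down to Rpl39l at 1.01 FPKM, and the 4 points of a gene lie close to each other against that range.

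Levels differed far more between members than between libraries, although their proteins are needed in near equal number. Levels are compared here per length, as FPKM. Rps27, a zinc finger protein of the small subunit, was the most abundant at 1145 and 1149 FPKM in KO libraries and 1088 and 998.9 FPKM in WT libraries (log2 fold change 0.14, limma adjusted p = 0.450). Rpl13 headed the large subunit with 769 and 746 FPKM in KO libraries and 664 and 666 FPKM in WT libraries (0.19, adjusted p = 0.265). In neither did the groups overlap, and neither passed. Other members of high level were Rps14 (mean 662 FPKM over the 4 libraries), Rps18 (534 FPKM), Rps29 (457 FPKM), Rplp0 (419 FPKM), Rpl41 (414 FPKM), Rplp1 (390.3 FPKM) and Rps23 (319 FPKM). A mean of at least 300 FPKM was reached by 13 members, of at least 100 FPKM by 51, and 15 were under 50 FPKM. The order of levels was closely similar within each genotype: Spearman's rho of the member levels was 0.994 between KO libraries and 0.993 between WT libraries, a description over 82 genes that share the gene lengths used for FPKM. Rps18, in the head of the small subunit, had 583 and 568 FPKM in KO libraries and 526 and 459 FPKM in WT libraries (0.23, adjusted p = 0.244). The 2 WT libraries stood further apart than the KO libraries, and both were lower.

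At the low end stood Rps20 (mean 10.3 FPKM), Rps12 (14.8 FPKM) and Rps15a (18.7 FPKM) of the small subunit, and Rpl39l (1.01 FPKM), Rpl6l (7.88 FPKM) and Rpl22 (10.6 FPKM) of the large subunit. All but Rpl39l and Rpl6l belong to the standard ribosome. Rps12 measured 12.1 and 18.6 FPKM in KO libraries and 15.0 and 13.4 FPKM in WT libraries (log2 fold change 0.07, limma adjusted p = 0.904), and the KO libraries lay on either side of the WT libraries. Rps20 measured 10.9 and 11.3 FPKM in KO libraries and 9.24 and 9.83 FPKM in WT libraries (0.20, adjusted p = 0.612), without overlap. FPKM divides by gene length, and the low group included genes with long annotated exons. The union of GENCODE M21 exons was 5395 bases for Rps15a, 3706 for Rps20 and 2065 for Rpl22. It was 644 bases for Rps12, so length does not accompany all low levels. Every coding 50-base stretch of Rps12 recurred in at least 1 of 25 other genes, 22 of them pseudogenes. Whether this bears on the low level of Rps12 was not tested. Over the 81 members with gene models, level and exonic length had a Spearman's rho of -0.159. Which gene lengths the authors used is not stated in the labels or the file.

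Most members shared sequence with other genes. Of 81 members, 30 had every coding 50-mer in at least 1 other annotated gene, 38 shared from 50% to under 100%, and 13 shared under 50%. Rpl7a shared stretches with 121 pseudogenes, Rpl21 and Rpl29 with 81 each, Rps2 with 71 and Rpl17 with 50. Rpl39l shared none. The median log2 fold change was 0.13 for the members shared in full, 0.16 for those in between and 0.17 for the 13 sharing under 50%, of which 11 were above 0. The difference between these classes was not tested. Rpl28, a large subunit gene whose coding 50-mers were all shared with other genes, 4 of them pseudogenes, lay far under the minimum, at 0.196 and 0.255 FPKM in KO libraries and 0.0512 and 0 FPKM in WT libraries. It was left out by the rule, and its values correspond to 8.06, 10.1, 2.02 and 0 reads per kilobase in KO 1, KO 2, WT 1 and WT 3.

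Introns of many members carry small nucleolar RNAs (snoRNAs), which guide the modification of ribosomal RNA. In GENCODE M21, 30 of the 81 members hosted 58 snoRNAs, among them Rpl4 with 5 and Rpl13a with 4. Rpl4 measured 408 and 417 FPKM in KO libraries and 358 and 360.0 FPKM in WT libraries (log2 fold change 0.20, limma adjusted p = 0.249). Its groups did not overlap, and it did not pass the test. The median log2 fold change was 0.15 in the 30 hosts and 0.16 in the 51 others.

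A total of 5 members had a negative log2 fold change, and none of them passed the test. Rpl37a, a zinc-binding large subunit protein, measured 303 and 247 FPKM in KO libraries and 363 and 271 FPKM in WT libraries (log2 fold change -0.20, SE 0.14, limma adjusted p = 0.549). Its replicates differed by more than its group means did. Rpl13a, which in human monocytic cells is released from the ribosome after interferon-gamma to silence inflammatory mRNAs, measured 279.1 and 267 FPKM in KO libraries and 304 and 264 FPKM in WT libraries (-0.05, adjusted p = 0.853). The groups overlapped in both. Rpl6l, annotated as similar to Rpl6, measured 7.51 and 8.09 FPKM in KO libraries and 7.91 and 8.01 FPKM in WT libraries (-0.03, adjusted p = 0.962), while Rpl6 itself had 75.1 and 82.02 FPKM in KO libraries and 69.8 and 67.1 FPKM in WT libraries (0.19, adjusted p = 0.402).

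Rpl39l, a paralog of Rpl39 known from male germ cells in mice, was the only member with both KO libraries below both WT libraries, against 21.7% of all tested genes. It measured 0.876 and 0.501 FPKM in KO libraries and 1.005 and 1.64 FPKM in WT libraries (log2 fold change -0.46, SE 0.25, limma adjusted p = 0.428), and it met the minimum of 1 FPKM through its WT libraries. These levels stand for 36.0 and 19.8 reads per kilobase in KO libraries and 39.5 and 64.0 in WT libraries. Of the symbols left out, Rpl32l lay nearest to the minimum of 1 FPKM, with a mean of 0.513 FPKM. It measured 0.246 and 0.642 FPKM in KO libraries and 0.429 and 0.737 FPKM in WT libraries. Rpl3l, a paralog of Rpl3 known from muscle, had a mean of 0.0753 FPKM and was also left out.

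Where a standard protein has a paralog, the standard gene did not always have the higher FPKM. Rpl22, whose loss in mice blocks development of alpha-beta T cells, measured 11.01 and 11.4 FPKM in KO libraries and 10.6 and 9.23 FPKM in WT libraries (log2 fold change 0.17, limma adjusted p = 0.685). Its paralog Rpl22l1 measured 59.0 and 66.6 FPKM in KO libraries and 60.2 and 53.5 FPKM in WT libraries (0.14, adjusted p = 0.608). Rpl22l1 was thus the higher of the pair per length in every library, and neither differed between genotypes beyond the threshold. Other genes shared 84.2% of the coding 50-mers of Rpl22l1 and 31% of those of Rpl22. The gene lengths behind FPKM are not stated, so the relative level of Rpl22 and Rpl22l1 is uncertain. The X-linked Rpl36a likewise stood under its autosomal copy Rpl36al, which measured 190.2 and 183 FPKM in KO libraries and 164 and 169 FPKM in WT libraries (0.16, adjusted p = 0.411). The coding 50-mers of both were shared in full with other genes, so their relative levels are uncertain.

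In the other pairs with a value for both genes, the standard gene led. Rpl10 and Rps4x are given alone, as their paralogs had no value to compare. Rpl7 measured 227 and 233 FPKM in KO libraries and 217 and 203 FPKM in WT libraries (log2 fold change 0.13, limma adjusted p = 0.516), and Rpl7l1 62.4 and 68.9 FPKM in KO libraries and 49.5 and 57.7 FPKM in WT libraries (0.29, adjusted p = 0.256). Rps27l, a paralog of Rps27 induced by p53, measured 28.8 and 35.7 FPKM in KO libraries and 32.1 and 26.6 FPKM in WT libraries (0.13, adjusted p = 0.735), far under Rps27. Rpl39 measured 64.5 and 67.9 FPKM in KO libraries and 64.7 and 46.3 FPKM in WT libraries (0.27, adjusted p = 0.422). Only WT replicate 3 stood apart in Rpl39. Rpl3, which helps to form the peptidyl transferase centre, measured 220.3 and 249 FPKM in KO libraries and 208 and 189 FPKM in WT libraries (0.24, adjusted p = 0.257). Rpl10, which joins late in large subunit maturation, measured 325 and 313 FPKM in KO libraries and 326 and 301 FPKM in WT libraries (0.03, adjusted p = 0.924). Rps4x, the X-linked gene with a Y-linked counterpart in humans, measured 123 and 120.2 FPKM in KO libraries and 100.05 and 99.2 FPKM in WT libraries (0.28, adjusted p = 0.146).

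Several members are also known for work outside the ribosome or for selective effects on translation. Rpl5 and Rpl11, which with 5S ribosomal RNA bind Mdm2 and stabilise p53, did not share a pattern. Rpl5 measured 93.4 and 97.9 FPKM in KO libraries and 83.6 and 81.9 FPKM in WT libraries, without overlap (log2 fold change 0.21, limma adjusted p = 0.329). Rpl11 measured 68.6 and 60.4 FPKM in KO libraries and 62.8 and 61.4 FPKM in WT libraries (0.05, adjusted p = 0.879). The difference between the 2 genes was not tested. Rpl38, needed for translation of Hox mRNAs in mouse embryos, measured 153 and 162 FPKM in KO libraries and 149 and 121 FPKM in WT libraries (0.23, adjusted p = 0.346). Rps3, also described in DNA repair and NF-kappaB binding, measured 268 and 267 FPKM in KO libraries and 239 and 235 FPKM in WT libraries (0.17, adjusted p = 0.337). The replicates of Rps3 lay close together and its groups apart.

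Rps6, the target of the S6 kinases, measured 162 and 173 FPKM in KO libraries and 150.2 and 148 FPKM in WT libraries (log2 fold change 0.16, limma adjusted p = 0.416). Rps25, used by viral and cellular internal ribosome entry sites, measured 176 and 166 FPKM in KO libraries and 199 and 129.9 FPKM in WT libraries (0.09, adjusted p = 0.857), with the WT libraries on either side of the KO libraries. Rpsa, also known as a laminin receptor, measured 76.1 and 80.5 FPKM in KO libraries and 75.5 and 69.8 FPKM in WT libraries (0.11, adjusted p = 0.678). Rps27a and Fau encode a ribosomal protein fused to ubiquitin or a ubiquitin-like protein. Rps27a measured 105 and 113 FPKM in KO libraries and 114 and 99.6 FPKM in WT libraries (0.03, adjusted p = 0.928). Fau, which the symbol rule does not include and which carries a small subunit protein, measured 72.7 and 84.4 FPKM in KO libraries and 80.1 and 69.8 FPKM in WT libraries (0.06, adjusted p = 0.852). The groups overlapped for Rps27a and Fau.

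Genes that build ribosomes were displaced by a similar amount. Of 48 tested ribosome biogenesis genes, 1 was called higher in KO, none was called lower, and 37 had a log2 fold change above 0, against 50.5% of all tested genes, with a median of 0.15. The gene called was Dkc1, the pseudouridine synthase that modifies ribosomal RNA with H/ACA snoRNAs and also belongs to telomerase. Dkc1 measured 34.7 and 35.8 FPKM in KO libraries and 21.1 and 23.5 FPKM in WT libraries (log2 fold change 0.64, SE 0.12, limma adjusted p = 0.0188), without overlap. Nop16, a nucleolar factor of the large subunit, measured 24.6 and 25.7 FPKM in KO libraries and 15.8 and 19.8 FPKM in WT libraries (0.48, adjusted p = 0.123), and Rrp9, a component of the U3 snoRNA particle, measured 54.0 and 54.4 FPKM in KO libraries and 43.4 and 45.4 FPKM in WT libraries (0.28, adjusted p = 0.217). Both missed the threshold. The median of 0.15 equals that of the ribosomal proteins and stands beside 0.00 for all tested genes, and 1 of 48 is near the 2.4% background.

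Other transcripts of the TOP class had 21 of 24 log2 fold changes above 0, against 50.5% of all tested genes. Their median was 0.14, with none called by limma. The list holds translation factors, but also other genes such as Vim and Cct4 and the non-coding Gas5 and Snhg1. An unadjusted limma p under 0.05 in the higher direction, which 8.97% of all tested genes had, was reached by 3 of the 24, a share near that background: Vim (0.25, adjusted p = 0.229), Cct4 (0.25, adjusted p = 0.271) and Rack1 (0.24, adjusted p = 0.299). Rack1, a scaffold on the small subunit, measured 182 and 213 FPKM in KO libraries and 178 and 156 FPKM in WT libraries. Chaperones and importers of ribosomal proteins had 12 of 14 above 0, against the same 50.5%, and a median of 0.13, with none called. Genes of RNA polymerase I, which transcribes ribosomal RNA, were split evenly, 10 of 20 above 0 with a median of 0.02. Their list includes subunits shared with other RNA polymerases, such as Polr2e and Polr2f. Rrn3, the factor that makes the polymerase competent to initiate, measured 11.6 and 8.90 FPKM in KO libraries and 13.3 and 14.6 FPKM in WT libraries (-0.42, adjusted p = 0.272) and did not pass. Taf1c, next by p, went the other way. It measured 5.41 and 4.91 FPKM in KO libraries and 3.73 and 3.84 FPKM in WT libraries (0.36, limma adjusted p = 0.419) and did not pass. Some genes, such as Rack1 and Npm1, stand in more than 1 of these lists.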

How the data were processed

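Gene expression was measured by bulk RNA-seq in liver ILC1s of 2 Cd200r KO and 2 WT libraries. Per the labels' protocols, RNA was extracted with TRIzol, its mRNA was copied and amplified with a kit for single cells, and libraries were made with a transposase. That chemistry keeps no strand, so sense and antisense reads over the same bases cannot be told apart. Fastp, HISAT2, HTSeq, DESeq2 and R 3.2.0 were used with mm10, per the submitters' processing notes. The authors deposited FPKM values for 18804 genes, with no counts. Neither the gene lengths nor the treatment of reads matching several places is stated in the labels or the file.

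FPKM was analysed as log2(FPKM + 1), which understates changes of low genes, for the 9476 genes that averaged 1 FPKM or more. KO was compared with WT by limma 3.58.1 in R 4.3.3 (mean-variance trend, two-sided, no covariate, Benjamini-Hochberg adjustment over all tested genes, threshold 0.05), and log2 fold changes are KO minus WT, with limma's standard error (SE). A fold is the KO mean FPKM over the WT mean. An exact permutation test of 2 against 2 libraries cannot go below p = 0.333. On 20 simulated sets of 9476 genes, the test recovered 72.7% of 2-fold changes and 99.6% of 4-fold changes, and 4.96% of its calls were false. The simulated noise was independent and drawn from the fit's own variance model, so these rates say nothing of departures from that model. Changes under 2-fold, the size seen in the members, were not simulated.

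Depth was inferred from repeated steps of low values in single-exon genes (38972600 to 41164777 reads), with 73.2% to 76.8% of those values within 0.05 of a whole read. Coordinates and starts are RefSeq on GRCm38.p6 (82 members matched), and exons, snoRNAs and coding 50-mers are GENCODE M21 (81 matched). Shared 50-mers were looked up in the transcripts of all other genes. The members and gene lists were chosen with earlier results of these data known. The members named are those past the test, the 5 highest and 5 of smallest p per subunit, the 3 lowest per subunit, paralog pairs, stalk genes and members with known roles outside the ribosome, and up to 3 genes of smallest p in each other list. Some genes that this rule names are not reported here. Members with a negative log2 fold change, Rpl4, Rpl6 and those named for their transcript starts or shared sequence were chosen after their values were seen.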

Additional observations from a re-analysis of the deposited data

How the results depend on the processing

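The direction of the ribosomal protein difference held in all 13 alternatives, and its calls did not. Changing the filter or leaving out the limma trend cannot change a gene's fold change, so those alternatives are no test of the direction. Another pseudocount can move it little at the level of most members. The median member was higher in KO for every pair of a KO and a WT library (0.09 to 0.23). Leaving out 1 library could therefore hardly reverse the direction either. The median log2 fold change of members lay between 0.09 and 0.21. The count of members called higher, 2 as reported, was 1 with a pseudocount of 0.1 FPKM, 1 with TPM scaling, 1 without haemoglobin and mitochondrial RNA, 0 with quantile normalization, 0 without a limma trend and 0 without a filter on low values, where no gene of 18155 was called by limma and 1898 had an unadjusted p under 0.05. With 1 replicate left out it lay between 0 and 3. No member was called lower in any alternative. The median of large subunit genes was 0.092 with quantile normalization and lay between 0.10 and 0.20 with 1 replicate left out, that of small subunit genes between 0.05 and 0.23, and that of all members between 0.09 and 0.21. The median of all tested genes stayed within -0.02 and 0.02. The KO minus WT difference in the share of summed FPKM was 0.303 percentage points, 0.186 without WT replicate 3 and 0.419 without WT replicate 1. The cause of these changes was not tested. No paired analysis was possible because KO and WT libraries share only replicate number 1. Fits with 1 replicate left out hold a group with a single library, assumed to vary like the other group.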
